A study of Homo sapiens with 12 samples.

Results

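Levels of 10 cytosolic heat shock genes were followed through sublines of the human mast cell leukaemia line HMC-1: the HSP70 genes HSPA1A, HSPA1B and HSPA8, the J-domain genes DNAJA1, DNAJA2, DNAJA4 and DNAJB1, the HSP110 gene HSPH1, the HSP90 gene HSP90AA1 and the small heat shock gene HSPB1. They are 10 of 58381 genes in the tables, and 10 of 15944 genes that passed the filter on low counts. The genes were chosen by name, with their values in these same libraries already known, so their levels and fold changes are given as a description and without p-values. DNAJA4 passed the filter only through the libraries of HMC-1.2.

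Polyadenylated RNA was sequenced from 4 groups of untreated cells, each with 3 libraries. HMC-1.1 carries the KIT variant V560G. HMC-1.2 carries V560G together with D816V. The HMC-1.3 cells were made from HMC-1.2 by CRISPR/Cas9 repair of V560G, which left a monoallelic D816V, and were sequenced as clone 1 and clone 2. Each HMC-1.3 group is therefore a single clone, and an effect of the repair and a property of a clone cannot be told apart within a clone. According to the study's methods, each line was plated in triplicate wells, and the sources used here give no separate passages or days, so p-values measure the spread between wells.

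Heat shock proteins are chaperones that keep other proteins folded or return them to a folded state. HSP70 proteins bind and release unfolded segments in a cycle driven by ATP. J-domain proteins bring clients to HSP70 and stimulate its ATPase, while HSP110 proteins exchange its nucleotide. HSP90 acts later on a set of clients that includes many kinases, and mutant KIT is among the proteins known to depend on it. Many of these genes are switched on by the transcription factor HSF1, which binds heat shock elements, inverted repeats of the unit GAA in their promoters. HSPA1A, HSPA1B, DNAJB1 and HSPH1 are strongly heat-inducible, HSPA8 is the constitutive HSP70, and HSP90AA1 is the inducible form of cytosolic HSP90.

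The promoters of the genes on which the comparisons turn are shown because they differ in how many such repeats they hold. The sequences were taken from RefSeq (GRCh38.p14), run from 250 bases before to 50 bases after a start site, and are written 5′ to 3′ on the strand of the gene. Capitals mark the repeats that were searched for, either 2 units (GAANNTTC or TTCNNGAA) or 3 alternating units (GAANNTTCNNGAA or TTCNNGAANNTTC). Each 2-unit motif is its own complement and the 3-unit motifs are complements of each other, so both strands were covered, and each 3-unit match also holds a 2-unit match. The windows are chr15:78264312-78264611 on the plus strand for the second of 3 listed starts of DNAJA4, chr6:31815293-31815592 on the plus strand for HSPA1A, chr6:31827488-31827787 on the plus strand for HSPA1B, chr11:123062087-123062386 on the minus strand for HSPA8, chr9:33025023-33025322 on the plus strand for DNAJA1 and chr14:102086995-102087294 on the minus strand for the second of 2 listed starts of HSP90AA1.
DNAJA4: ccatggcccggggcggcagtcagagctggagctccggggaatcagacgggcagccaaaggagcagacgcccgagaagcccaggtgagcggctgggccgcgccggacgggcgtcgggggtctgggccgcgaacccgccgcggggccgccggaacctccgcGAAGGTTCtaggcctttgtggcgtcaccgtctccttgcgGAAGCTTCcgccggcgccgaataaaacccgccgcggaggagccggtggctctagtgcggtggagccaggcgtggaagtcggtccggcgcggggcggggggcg
HSPA1A: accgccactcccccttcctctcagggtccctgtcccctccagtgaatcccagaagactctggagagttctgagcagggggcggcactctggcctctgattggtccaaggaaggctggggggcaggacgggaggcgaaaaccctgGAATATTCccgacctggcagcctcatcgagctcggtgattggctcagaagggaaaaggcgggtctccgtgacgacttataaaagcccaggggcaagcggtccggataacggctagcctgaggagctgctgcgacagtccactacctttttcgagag
HSPA1B: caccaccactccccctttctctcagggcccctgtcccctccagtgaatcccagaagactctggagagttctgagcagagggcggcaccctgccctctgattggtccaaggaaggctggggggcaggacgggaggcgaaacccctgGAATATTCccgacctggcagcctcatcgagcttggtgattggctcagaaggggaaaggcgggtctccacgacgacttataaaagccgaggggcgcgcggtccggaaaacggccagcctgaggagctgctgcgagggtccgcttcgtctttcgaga
HSPA8: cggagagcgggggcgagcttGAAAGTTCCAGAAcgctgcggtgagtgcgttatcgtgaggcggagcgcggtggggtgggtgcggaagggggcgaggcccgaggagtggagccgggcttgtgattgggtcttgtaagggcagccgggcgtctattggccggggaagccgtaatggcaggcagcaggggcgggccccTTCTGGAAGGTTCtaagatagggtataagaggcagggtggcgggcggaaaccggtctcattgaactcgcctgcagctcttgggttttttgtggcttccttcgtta
DNAJA1: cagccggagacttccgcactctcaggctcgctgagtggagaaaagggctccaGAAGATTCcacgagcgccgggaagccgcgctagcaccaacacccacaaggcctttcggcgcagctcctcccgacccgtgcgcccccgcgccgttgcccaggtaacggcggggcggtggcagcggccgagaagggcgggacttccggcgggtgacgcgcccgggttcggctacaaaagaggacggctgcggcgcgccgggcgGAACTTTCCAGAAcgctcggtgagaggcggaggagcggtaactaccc
HSP90AA1: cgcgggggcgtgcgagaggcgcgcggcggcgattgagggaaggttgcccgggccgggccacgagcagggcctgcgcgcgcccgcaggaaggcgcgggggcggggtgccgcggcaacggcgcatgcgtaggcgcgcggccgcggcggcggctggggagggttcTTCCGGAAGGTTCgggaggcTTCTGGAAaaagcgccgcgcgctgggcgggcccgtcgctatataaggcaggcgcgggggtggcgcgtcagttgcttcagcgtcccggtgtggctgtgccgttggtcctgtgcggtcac

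A 2-unit repeat was found in 9 of the 15 listed promoters of these genes, compared with 13.5% of all 35114 promoters searched. By gene, 8 of the 10 held it in at least 1 promoter, and a gene with several listed starts had more chances to match. The 3 alternating units were found in 3 of the 15 promoters, 1 each of DNAJA1, HSPA8 and HSP90AA1, compared with 0.49% of all promoters. In DNAJA4 the repeats lay at -91 to -84 and at -52 to -45 from the start, and the promoter of its other starts held none. In DNAJB1, whose second start lies in chr19:14518348-14518647 on the minus strand, they lay at -77 to -70 and at -47 to -40. The promoters of HSPA1A and HSPA1B were identical at 92% of aligned bases and held 1 repeat each. No match was found in the windows of DNAJA2 and HSPH1, which says only that these letters are not in those windows.

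The libraries held 29225900 to 43181402 expected counts, and TMM factors lay between 0.974 and 1.02. Within a group, pairs of libraries had a chi-square over degrees of freedom of 2.84 to 7.67, above the value of counting error alone, and none was a copy of another. The mast cell genes KIT (48632 to 82402 counts), HDC (52206 to 69267) and GATA2 (14630 to 24398) were high in every library. TPSAB1, a tryptase gene, averaged 592 FPKM in HMC-1.2 against 29.4 to 44.2 in the other groups, and TPSB2 averaged 96.6 FPKM against 35.0 to 40.7. CPA3 (147 to 760 counts) and HPGDS (147 to 532) were present at lower levels, while FCER1A (4 to 46), MS4A2 (3 to 23) and CMA1 (0 to 4) were close to absent. Marker lists of erythroid, lymphoid, neutrophil and monocyte, and fibroblast and epithelial cells summed to at most 11.2 CPM (counts scaled by library size) in any library. The erythroid sum was 2.35 to 2.85 CPM in HMC-1.2 and 4.86 to 7.86 CPM in the other groups, and its part in any result was not tested. HMC-1.2 replicate 1, clone 2 replicate 1 and clone 1 replicate 3 are labelled as resent, and the number of heat shock genes called was the same without them in each comparison. KRT18 had 429 counts in clone 2 replicate 3 and 0 to 4 in the other 11 libraries.

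DNAJA4, a type I J-domain protein that partners HSP70 (GRCh38, chr15:78264086-78282196, plus strand), was read in HMC-1.2 and nearly absent elsewhere. In HMC-1.2 its level was 6.90, 6.74 and 7.58 FPKM (fragments per kilobase of transcript, scaled by library size) in replicates 1, 2 and 3, from 600, 517 and 474 counts. It was listed at 0 in the 3 libraries of HMC-1.1 and the 3 of clone 2, and in clone 1 a single count stood in replicate 1 (0.04 FPKM). The HMC-1.2 libraries did not overlap with any other group. In bulk RNA, fewer cells with a transcript and less of it per cell cannot be told apart. Set against a floor of 3 counts over a group, DNAJA4 was at least 612-fold lower in HMC-1.1 and at least 640-fold lower in clone 2 than in HMC-1.2. The 1 count in clone 1 gave a ratio of 1754 to HMC-1.2, with a 95% exact interval of 314 to 69300 that covers counting error only. No fold is given among HMC-1.1, clone 1 and clone 2, where the gene stood at or under the floor.

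The tested genes around DNAJA4 did not share this pattern. Of 19 genes with a row that start within 250 kb of it, 7 were tested, and their log2 fold changes lay between -0.43 and 0.59 over the 3 comparisons with HMC-1.2. IREB2, an iron-regulatory protein that starts 173.3 kb downstream, was singled out after its values were seen. Its log2 fold change against HMC-1.2 was -0.43 in clone 1 (edgeR quasi-likelihood fit, Benjamini-Hochberg adjusted p = 1.21e-08). It was -0.32 in clone 2 (edgeR, adjusted p = 5.03e-07) and -0.35 for HMC-1.1 (edgeR, adjusted p = 1.85e-07), with no change over 1.5-fold. WDR61 and IDH3A were also lower in all 3 comparisons, and TBC1D2B was higher in all 3, each by less than 1.5-fold. AGPHD1, singled out after its values were seen, was the 1 neighbour past both thresholds, in clone 1 against HMC-1.2 (edgeR, adjusted p = 0.00136). Its log2 fold change of 0.5857 lay barely past the threshold of 0.585, and its call was not followed through the alternatives. The 12 untested neighbours had at most 11 counts in any library. They include a long noncoding RNA that starts 0.07 kb from DNAJA4, and whether the counting used strand is not given in the sources used here.

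**Figure D1:**
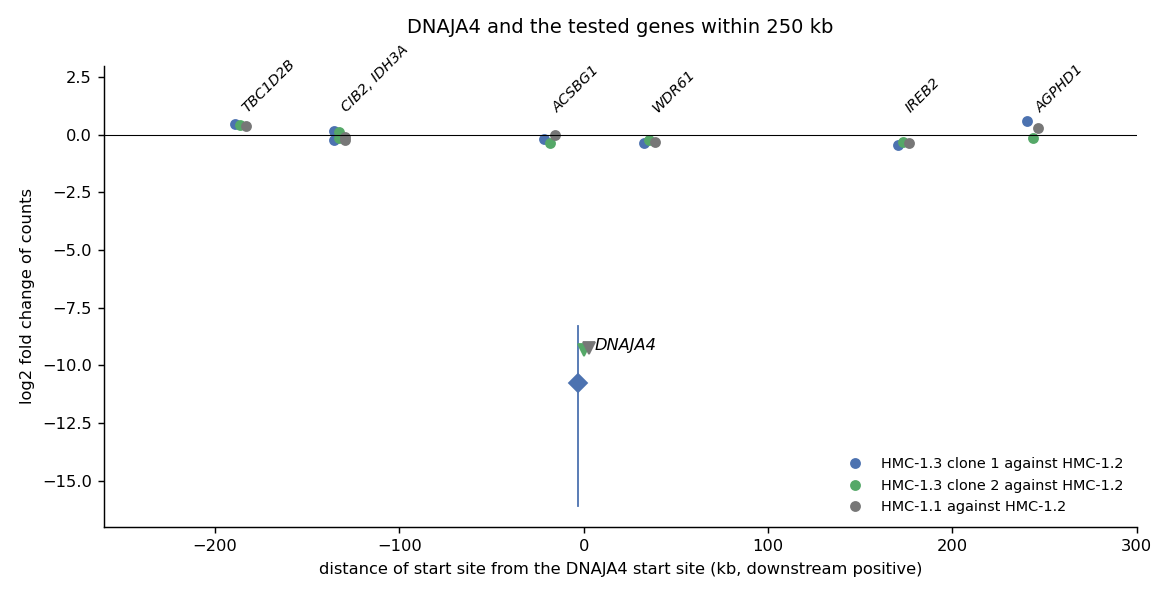
Log2 fold change against HMC-1.2 (vertical axis) of DNAJA4 and the 7 tested genes within 250 kb, by distance of their start sites in kb (horizontal axis). Circles are neighbours, which lie between -0.43 and 0.59. For DNAJA4, triangles are lower bounds on the decrease in clone 2 and HMC-1.1, and the diamond is the ratio in clone 1 with its 95% interval.

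The 5 genes whose profiles over the 12 libraries were most like that of DNAJA4 were SIGLEC12, ZNF542, ITGAL, ZNF100 and CCDC120, with root mean square differences of 0.512, 0.515, 0.541, 0.759 and 0.820 on the centred log2 CPM scale. ITGAL, an integrin chain of leukocytes, had 11765 to 14746 counts in HMC-1.2 and 149 to 211 in the other 9 libraries. SIGLEC12 had 2100 to 2603 counts in HMC-1.2 and 8 to 33 elsewhere. ZNF542, ZNF100 and CCDC120 had 152 to 302 counts in HMC-1.2 and 0 to 4 elsewhere. Like DNAJA4, they passed the filter on low counts only through HMC-1.2, so their likeness rests on counts near 0 elsewhere. The other 9 heat shock genes had differences of 2.90 to 3.26 from DNAJA4 on the same measure. A gene that changed little, such as DNAJA2, also stood at 3.22. These distances reflect the drop of DNAJA4 to near 0 outside HMC-1.2 and do not describe the patterns of the 9 genes.

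Among the other heat shock genes, clone 1 was the lowest group and HMC-1.2 or clone 2 the highest. Together the 10 genes took 6769 to 7053 CPM in HMC-1.2, 6603 to 6855 CPM in clone 2, 5421 to 5521 CPM in HMC-1.1 and 3562 to 3674 CPM in clone 1. The mitochondrial share of counts was 2.27% to 2.60% in clone 1, 1.96% to 2.42% in clone 2, 1.84% to 2.28% in HMC-1.1 and 1.77% to 1.99% in HMC-1.2, and the share of the 10 most abundant genes was 5.40% to 5.72% in clone 1, 5.12% to 5.31% in clone 2, 5.31% to 5.47% in HMC-1.1 and 5.25% to 5.39% in HMC-1.2. On both measures clone 1 did not overlap with HMC-1.2, and their part in the levels was not tested.

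**Figure D2:**
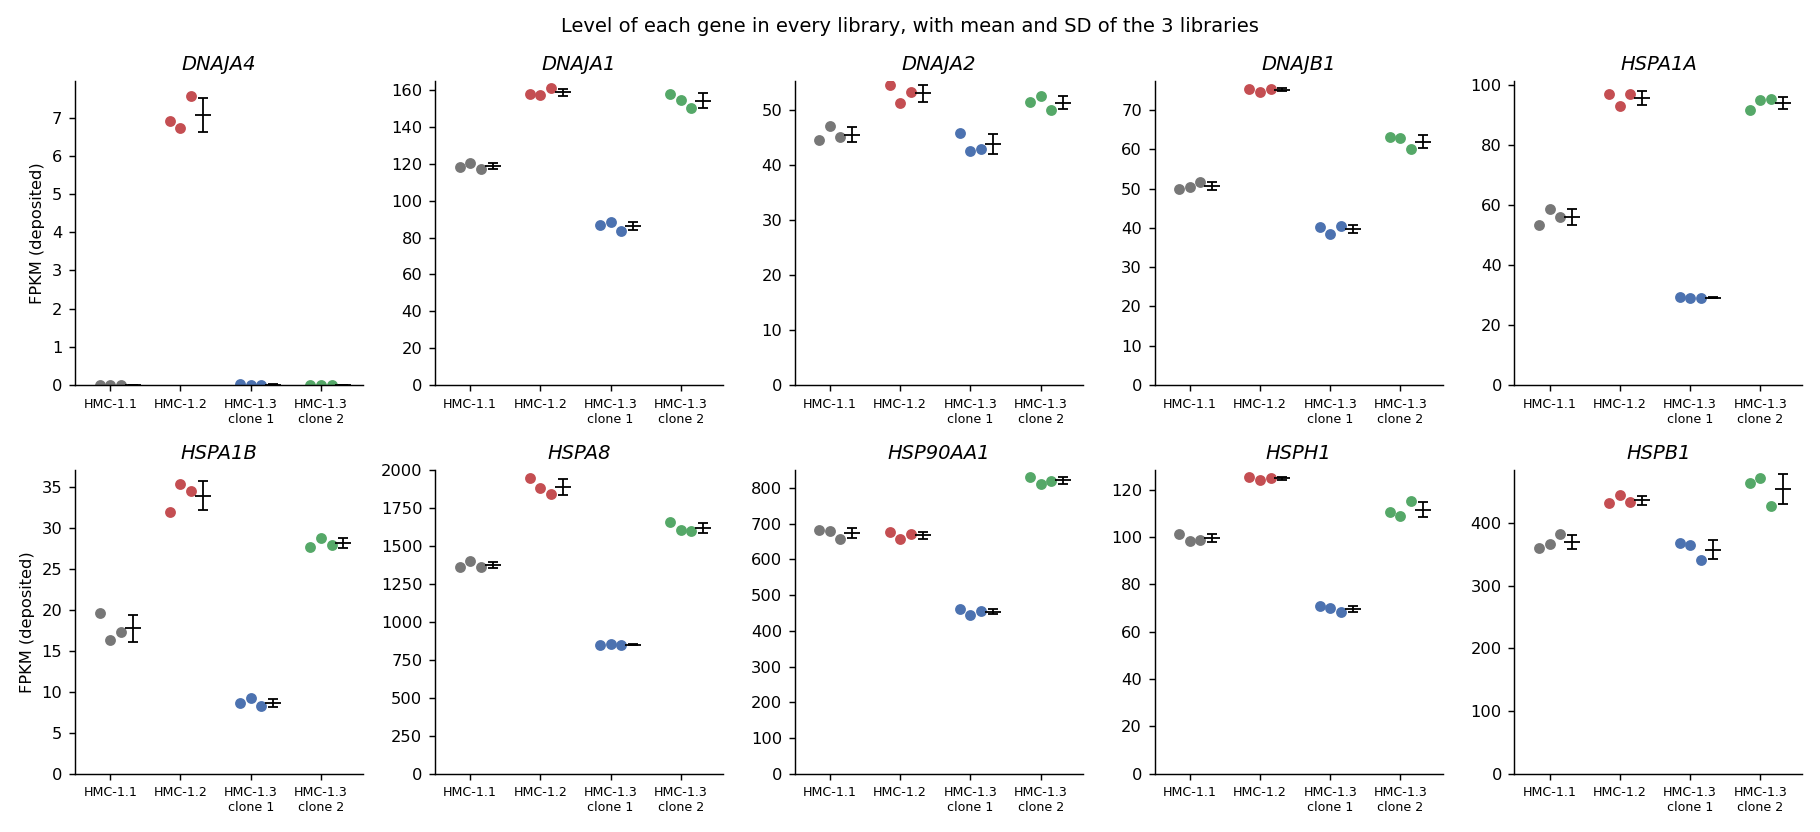
Deposited FPKM (vertical axis, from 0) of each of the 10 genes in every library, by group. Circles are libraries, and bars are the mean and SD of the 3 libraries of a group. DNAJA4 is present in HMC-1.2 only apart from 0.04 FPKM in 1 library of clone 1, and HSPA1A is near 29.2 FPKM in clone 1 against 93.2 to 97.0 in HMC-1.2.

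HSPA1A and HSPA1B, neighbouring genes (chr6:31815543-31817946 and chr6:31827738-31830254, plus strand) that encode nearly identical inducible HSP70 proteins, had the widest spread among groups after DNAJA4. HSPA1A stood at 29.2, 29.2 and 29.1 FPKM in clone 1, at 53.4, 58.8 and 56.2 in HMC-1.1, at 97.0, 93.2 and 97.0 in HMC-1.2 and at 91.6, 95.1 and 95.4 in clone 2. In FPKM, clone 1 and HMC-1.1 did not overlap with any group, whereas the ranges of HMC-1.2 and clone 2 did overlap. In CPM, HMC-1.2 (208 to 217) lay above clone 2 (203 to 207) without overlap. HSPA1A was 3.42-fold lower in clone 1 than in HMC-1.2 (log2 fold change -1.78, SE 0.04), and 1.76-fold lower in HMC-1.1 (-0.81, SE 0.03). Between clone 2 and HMC-1.2 its log2 difference was -0.05 (SE 0.03).

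HSPA1B stood at 8.64, 9.18 and 8.21 FPKM in clone 1, at 19.6, 16.3 and 17.2 in HMC-1.1, at 31.9, 35.3 and 34.5 in HMC-1.2 and at 27.6, 28.8 and 27.9 in clone 2, and no groups overlapped. It was 4.06-fold lower in clone 1 than in HMC-1.2 (log2 fold change -2.02, SE 0.06). The expected counts of HSPA1A were not whole numbers in 12 of 12 libraries and those of HSPA1B in 11, so reads had been divided between genes, and the split within this near-identical pair is uncertain. Counts were also not whole for HSP90AA1 in 12 libraries, HSPA8 in 9, HSPB1 in 4, DNAJA1 in 3, DNAJB1 in 2 and DNAJA2 in 1. How much this sharing moved their levels was not tested. HSPA1B took 22.6% to 28.5% of the summed counts over all libraries, and the sum of the pair gave log2 fold changes against HMC-1.2 of -1.84 in clone 1, -0.11 in clone 2 and -0.85 for HMC-1.1 (SE 0.03 each).

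HSPA8 (chr11:123057489-123063230, minus strand), the constitutive HSP70, was the most abundant of the 10 genes by FPKM in every group. Its level was 845, 855 and 850 FPKM in clone 1, 1365, 1401 and 1363 in HMC-1.1, 1948, 1880 and 1841 in HMC-1.2 and 1657, 1606 and 1599 in clone 2. The groups did not overlap and followed the order clone 1, HMC-1.1, clone 2, HMC-1.2. HSPA8 was 2.29-fold lower in clone 1 than in HMC-1.2 (SE 0.03 on the log2 scale), while the log2 level of clone 2 differed from HMC-1.2 by -0.23 (SE 0.03).

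The J-domain partners of HSP70 differed in size of change. DNAJA1 (chr9:33025273-33039907, plus strand), a cytosolic type I J-domain protein, stood at 86.9, 88.2 and 83.7 FPKM in clone 1, at 118, 121 and 117 in HMC-1.1, at 158, 157 and 161 in HMC-1.2 and at 158, 155 and 150.1 in clone 2. In FPKM, HMC-1.2 and clone 2 overlapped, and the other groups stood apart. In CPM, HMC-1.2 (339 to 345) lay above clone 2 (316 to 337) without overlap. The log2 fold change of DNAJA1 against HMC-1.2 was -0.93 in clone 1, -0.07 in clone 2 and -0.46 for HMC-1.1 (SE 0.03 each). DNAJB1 (chr19:14514769-14560391, minus strand), the heat-inducible type II partner, averaged 75.2 ± 0.402 FPKM in HMC-1.2 (SD, n = 3), 62.0 ± 1.68 in clone 2, 50.6 ± 0.977 in HMC-1.1 and 39.7 ± 1.08 in clone 1. No groups overlapped, and DNAJB1 was 2.00-fold lower in clone 1 than in HMC-1.2 (SE 0.03 on the log2 scale). DNAJA2 (chr16:46955362-46973674, minus strand), another type I J-domain protein, lay between 42.5 and 54.5 FPKM in all 12 libraries, with log2 differences from HMC-1.2 of -0.27 in clone 1, -0.09 in clone 2 and -0.20 for HMC-1.1 (SE 0.04 each).

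HSPH1 (chr13:31134973-31162388, minus strand), the HSP110 exchange factor of HSP70, averaged 125 ± 0.810 FPKM in HMC-1.2, 112 ± 3.24 in clone 2, 99.6 ± 1.66 in HMC-1.1 and 69.7 ± 1.22 in clone 1 (SD, n = 3), with no overlap. Its log2 fold change in clone 1 against HMC-1.2 was -0.87 (SE 0.03). Of all pairs among the 10 genes, HSPH1 and DNAJA1 had the closest profiles, with a root mean square difference of 0.0796 over the 12 libraries.

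HSP90AA1 (chr14:102080742-102139699, minus strand) followed another order. It stood at 461, 445 and 456 FPKM in clone 1, at 682, 679 and 657 in HMC-1.1, at 676, 657 and 670 in HMC-1.2 and at 832, 812 and 820 in clone 2. HMC-1.1 and HMC-1.2 overlapped, clone 1 lay below both and clone 2 above both. The log2 fold change against HMC-1.2 was -0.62 in clone 1, 0.27 in clone 2 and -0.03 for HMC-1.1 (SE 0.03 each), so that the clones lay on opposite sides of their parent. In clone 1 the fold was 1.53, close to the threshold of 1.5, and the call was lost when the test was made against 1.5-fold itself. HSPB1 (chr7:76302673-76304295, plus strand), a small heat shock protein that holds unfolded clients without ATP, averaged 437 ± 7.09 FPKM in HMC-1.2, 455 ± 24.0 in clone 2, 370.4 ± 11.3 in HMC-1.1 and 358 ± 15.03 in clone 1 (SD, n = 3). HMC-1.2 overlapped with clone 2, and HMC-1.1 with clone 1.

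**Figure D3:**
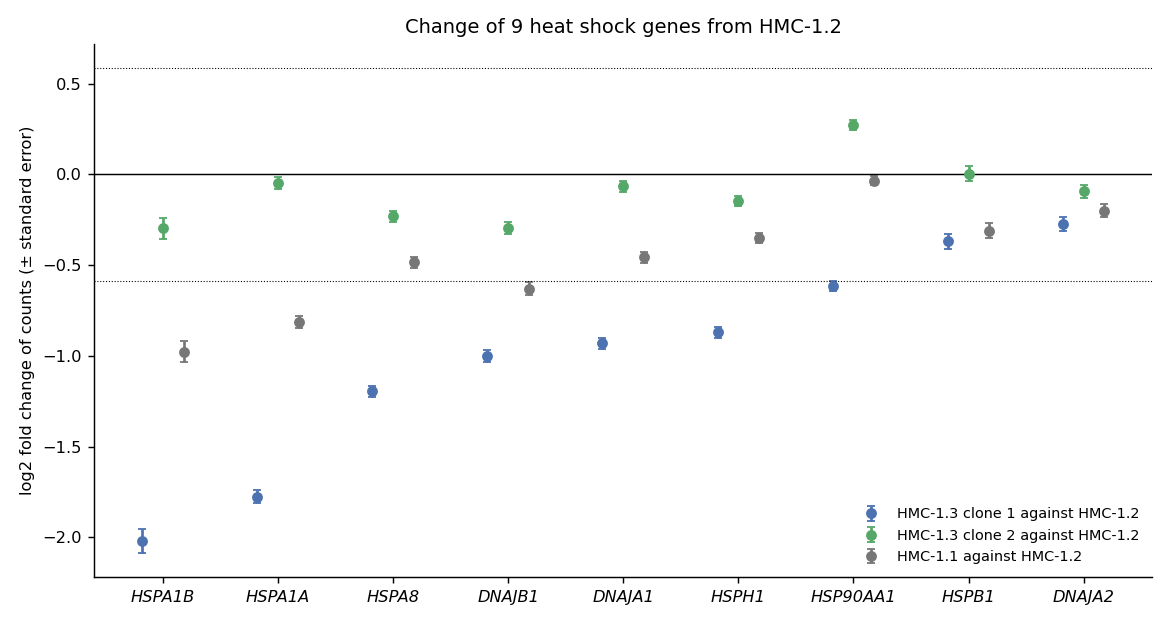
Log2 fold change of counts against HMC-1.2 (vertical axis, with SE) of the 9 heat shock genes other than DNAJA4, ordered by the change in clone 1. Dotted lines mark 1.5-fold. In clone 1 all 9, chosen with these values known, lie below 0, where 48.7% of all tested genes do. They run from -2.02 for HSPA1B to -0.27 for DNAJA2, while in clone 2 they lie between -0.30 and 0.27.

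A gene was called when its adjusted p was under 0.05 and its fold over 1.5 (edgeR with Benjamini-Hochberg adjustment over 15944 genes). In clone 1 against HMC-1.2, 8 of the 10 genes were called lower, all except DNAJA2 and HSPB1, where 8.18% of all tested genes were called lower and 11.8% higher. At the adjusted p alone, 29.3% of all tested genes were lower and 30.1% higher. In clone 2 against HMC-1.2, DNAJA4 alone was called lower, beside 8.51% of all genes lower and 7.98% higher. For HMC-1.1 set against HMC-1.2, DNAJA4, DNAJB1, HSPA1A and HSPA1B were called lower, beside 7.52% lower and 10.1% higher. These 3 comparisons share the HMC-1.2 libraries. Since the members were picked with these values known, nothing is read from the counts.

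The clones were also compared directly. In clone 1 against clone 2, 7 of the 10 genes were called lower (DNAJA1, DNAJB1, HSPA1A, HSPA1B, HSPA8, HSP90AA1 and HSPH1), where 4.25% of all tested genes were called lower and 8.38% higher, and 24.7% were lower and 25.5% higher at the adjusted p alone. HSPA1A was 3.31-fold lower in clone 1 than in clone 2 (log2 fold change -1.73, SE 0.04) and HSP90AA1 1.85-fold lower (-0.89, SE 0.03). Against HMC-1.1, HSPA1A, HSPA1B and HSPA8 were called lower in clone 1, beside 0.339% of all genes lower and 0.671% higher. In clone 2 against HMC-1.1, HSPA1A and HSPA1B were called higher, beside 3.04% higher and 5.15% lower. Over the 9 genes without DNAJA4, the median log2 fold change against HMC-1.2 was -0.93 for clone 1, -0.09 for clone 2 and -0.46 for HMC-1.1, and that of clone 1 against clone 2 was -0.87, where the medians over all tested genes lay between -9.12e-05 and 0.01.

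The rest of the chaperone system was followed through 8 lists of 115 other genes, of which 102 were tested. In clone 1 against HMC-1.2, 16 of the 102 were called lower (15.7%, beside 8.18% of all tested genes) and 3 higher (2.94%, beside 11.8%), with a median log2 fold change of -0.22 where that of all genes was 0.01. At the adjusted p alone, 65 were lower (63.7%, beside 29.3%) and 16 higher (15.7%, beside 30.1%). In clone 2 against HMC-1.2, 2 were called lower (1.96%, beside 8.51%) and 3 higher (2.94%, beside 7.98%), with a median of -0.03. For HMC-1.1 set against HMC-1.2, 5 were called lower (4.9%, beside 7.52%) and 2 higher (1.96%, beside 10.1%), with a median of -0.14. In clone 1 against clone 2, 10 were called lower (9.8%, beside 4.25%) and 1 higher (0.98%, beside 8.38%), with a median of -0.20. In clone 1 against HMC-1.1, 3 were called lower (2.94%, beside 0.339%) and 1 higher (0.98%, beside 0.671%). In clone 2 against HMC-1.1, 48 were higher (47.1%, beside 18.5% of all tested genes) and 4 lower (3.92%, beside 17.5%) at the adjusted p alone, each by less than 1.5-fold.

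Among the heat shock factors and stress-inducible genes, 3 of 12 were called lower (25%, beside 8.18% of all tested genes) and 1 higher (8.33%, beside 11.8%) in clone 1 against HMC-1.2. HSF1 itself was at 90.7 FPKM in HMC-1.2, 75.5 in clone 1, 68.1 in clone 2 and 67.9 for HMC-1.1. It was lower than in HMC-1.2 in clone 1 (log2 fold change -0.34, edgeR adjusted p = 4.25e-08), in clone 2 (-0.46, adjusted p = 1.45e-09) and also in HMC-1.1 (-0.47, adjusted p = 9.61e-10), in each case by less than 1.5-fold. HSF2 was higher in all 3 groups, by 0.36, 0.31 and 0.32 on the log2 scale (edgeR adjusted p of 4.95e-06 or less). HSPA6, a strictly inducible HSP70, fell by 1.42 on the log2 scale in clone 1 (edgeR adjusted p = 0.000183), 2.46-fold in clone 2 (adjusted p = 0.000481) and by 1.04 on the log2 scale in HMC-1.1 (adjusted p = 0.0023). It stood at 0.86 FPKM even in HMC-1.2, and it has a close copy that may share its reads. Its calls were lost in limma on log2(FPKM + 1), and that for HMC-1.1 also when tested against 1.5-fold itself. BAG3, a stress-inducible exchange factor, fell by 0.62 in clone 1 (edgeR adjusted p = 1.05e-08) and differed by -0.02 in clone 2 (adjusted p = 0.718). CHORDC1, an HSP90 partner, fell by 0.64 in clone 1 (SE 0.03), and ZFAND2A rose by 0.70 (SE 0.09). The calls of BAG3, CHORDC1 and ZFAND2A in clone 1 were lost when tested against 1.5-fold itself, and that of BAG3 also in limma on log2(FPKM + 1).

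Among the other HSP90 proteins and co-chaperones, 2 of 17 were called lower in clone 1 against HMC-1.2 (11.8%, beside 8.18% of all tested genes). AHSA1, which activates the ATPase of HSP90, stood at 264 FPKM in HMC-1.2, 235 in clone 2, 200.5 in HMC-1.1 and 152 in clone 1, and fell by 0.82 on the log2 scale in clone 1 (edgeR adjusted p = 1.53e-12). FKBP4, an immunophilin, fell by 0.61, and by 0.58 and below the fold threshold without clone 1 replicate 3. Its call was also lost without the 3 resent libraries, when tested against 1.5-fold itself and in both limma fits. HSP90AB1, the constitutive HSP90, differed by -0.56 in clone 1 (edgeR adjusted p = 1.9e-11), -0.16 in clone 2 and -0.28 for HMC-1.1, all less than 1.5-fold. Of the other J-domain genes, 1 of 22 was called higher in clone 1 (4.55%, beside 11.8%), DNAJC12. It went opposite to DNAJA4, at 5.20 FPKM in HMC-1.2 and 21.9, 25.5 and 22.7 in HMC-1.1, clone 1 and clone 2, and rose by 2.23 in clone 1, 2.11 in clone 2 and 2.03 for HMC-1.1 on the log2 scale (edgeR adjusted p = 4.9e-14 in clone 1). Of the other HSP70 proteins and exchange factors, 2 of 13 were called lower in clone 1 (15.4%, beside 8.18%), HSPA2 from 3.81 to 1.95 FPKM and HSPA1L, a near relative of HSPA1A, from 0.88 to 0.57 FPKM. The call of HSPA1L was lost without the 3 resent libraries, when tested against 1.5-fold itself and in both limma fits. BAG1 rose by 0.59 in clone 2, and by 0.57 without HMC-1.2 replicate 3 or clone 2 replicate 2, under the threshold of 0.585, and its call was lost when tested against 1.5-fold itself.

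The chaperones of other compartments were read the same way. In the endoplasmic reticulum list, 6 of 12 were called lower in clone 1 (50%, beside 8.18% of all tested genes), 4 of 12 in HMC-1.1 (33.3%, beside 7.52%) and 1 of 12 in clone 2 (8.33%, beside 8.51%), each set against HMC-1.2. In clone 2, 1 of 12 was called higher (8.33%, beside 7.98%), SIL1, an exchange factor of HSPA5 singled out after its values were seen. Its log2 fold change of 0.593 (edgeR adjusted p = 7.98e-08) lay barely past the threshold of 0.585. The 5 calls over all lists in clone 2 fell to 3 when tested against 1.5-fold itself, where DNAJC12, CANX and HSPA6 kept theirs. HSPA5, the HSP70 of the endoplasmic reticulum, stood at 260.0 FPKM in HMC-1.2, 195 in clone 2, 136 in HMC-1.1 and 111 in clone 1. It fell by 1.28 on the log2 scale in clone 1 (edgeR adjusted p = 8.38e-16) and by 0.97 in HMC-1.1. CANX, a lectin chaperone, fell by 1.24 in clone 1 (edgeR adjusted p = 1.08e-15), 0.95 in clone 2 and 1.13 for HMC-1.1. CALR, its soluble relative, fell by 1.01 in clone 1. Of the mitochondrial list, 1 of 10 was called lower in clone 1 (10%), HSPE1, the co-chaperonin, by a log2 fold change of -0.90 (edgeR adjusted p = 5.41e-12), while its partner HSPD1 differed by -0.42. Of the chaperonin and prefoldin genes, 1 of 14 was called lower in clone 1 (7.14%), TCP1 at -0.64. Only 2 of 8 other small heat shock genes were tested, and HSPB6 rose by 1.23 in clone 1 from 1.01 FPKM in HMC-1.2.

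**Figure D4:**
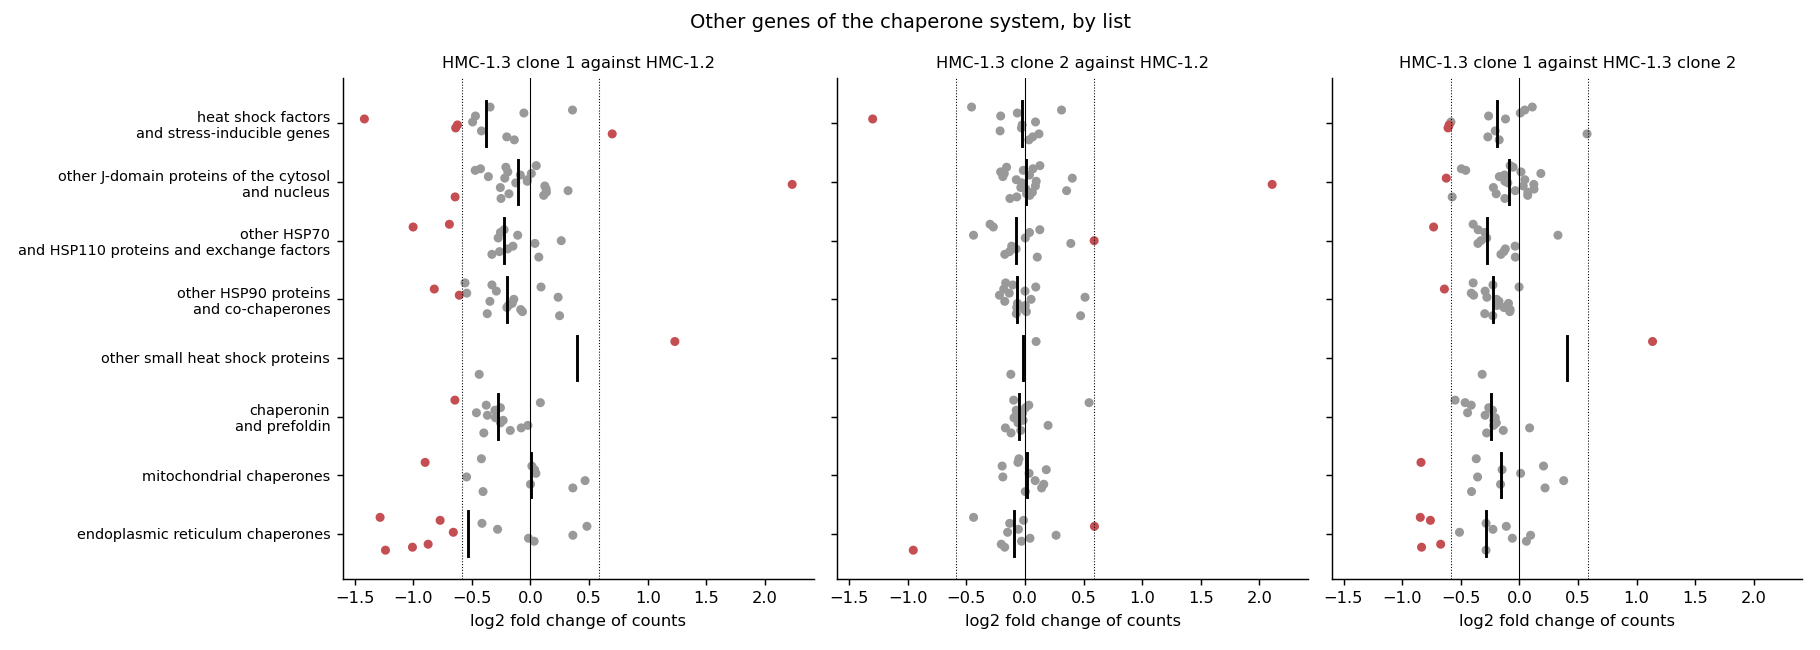
Log2 fold change of counts (horizontal axis, the same scale in each panel) of the tested genes of 8 chaperone lists, one point per gene, in clone 1 and clone 2 against HMC-1.2 and clone 1 against clone 2. Red points were called, grey points were not, black bars are list medians and dotted lines mark 1.5-fold. In clone 1 against HMC-1.2, 16 points were called lower and 3 higher, and in clone 2 against HMC-1.2, 2 lower and 3 higher.

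KIT, whose product is a client of HSP90, was higher in each group than in HMC-1.2. Its log2 fold change against HMC-1.2 was 0.29 in clone 1 (edgeR adjusted p = 2.89e-07), 0.16 in clone 2 (adjusted p = 0.000297) and 0.18 for HMC-1.1 (adjusted p = 0.000101), in each case less than 1.5-fold.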

How the data were processed

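Polyadenylated RNA from 12 libraries of 4 groups was analysed, as grouped by the labels. According to the study's methods, cells were cultured for 72 h and 600 ng of RNA per library was used, with a stranded kit per the labels. Per the submitters' processing notes, the authors used cutadapt 2.10, STAR 2.5.3, Picard and RSEM 1.3.0 on hg38. The deposited expected counts come from RSEM without normalization and were rounded before fitting. The deposited FPKM divide by transcript length and library size, and served to compare genes. DESeq2 appears in the notes.

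Counts were fitted with edgeR 4.0.16 (R 4.3.3): filterByExpr, TMM, a quasi-likelihood test over all 12 libraries with group as the term, and Benjamini-Hochberg adjustment over 15944 genes. SE is the absolute log2 fold change divided by the square root of F. DNAJA4 was given against a floor of 3 counts over a group, and the 95% interval of its ratio is an exact binomial one. All members were described. From each pathway list up to 3 genes were named, those called in any comparison at a mean of at least 1 CPM with the largest change against HMC-1.2, with HSF1, HSF2, HSPA6, BAG3, HSP90AB1, HSPD1, HSPE1, HSPA5 and KIT always, and the 5 genes most like DNAJA4. The result of 1 listed gene is not reported here. The members, lists and tests were chosen with earlier results of these data known. Alternatives were DESeq2 1.42.0, RLE factors, no filter on low counts, only the groups compared, a replicate block, a term for libraries labelled as resent, glmTreat, and limma 3.58.1 on log2(FPKM + 1) and log2(FPKM + 0.1), with each library left out in turn. On data simulated for clone 1 against HMC-1.2, with 200 of 15944 genes changed, edgeR recovered 178 with 7 false calls. The simulated counts followed the kind of model that edgeR fits, and every planted change was larger than 1.5-fold. Fewer genes were changed than were called in the data (1888 higher and 1305 lower). The simulation therefore cannot show how calls near the threshold behave. Libraries with the same replicate number did not deviate together (correlations of -0.0433 to 0.0964 over 18 pairs). Gene positions are those of Gencode 44 on GRCh38, and a promoter window from RefSeq is a reference sequence, not one read from these cells.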

Additional observations from a re-analysis of the deposited data

Results flagged for a closer look

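The change from HMC-1.2 differed between clone 1 and clone 2 for 16 named heat shock and chaperone genes, by the direct comparison of the clones. Of all tested genes, 4.25% were called lower and 8.38% higher in that comparison. The heat shock genes were picked with their values known, and a call in this comparison could itself bring a pathway gene among those named. Nothing is therefore read from the count of 16. SIGLEC12, named for its likeness to DNAJA4, was also called, at a log2 fold change of 1.07 in clone 1 against clone 2. It had 23 to 26 counts in clone 1 and 8 to 16 in clone 2. Its call was lost under glmTreat and in limma on log2(FPKM + 1). For the heat shock genes, which were chosen by name with their values known, the difference is given without a p. The log2 fold change of clone 1 against clone 2 was -0.87 for DNAJA1, -0.70 for DNAJB1, -1.73 for HSPA1A, -1.72 for HSPA1B, -0.96 for HSPA8, -0.89 for HSP90AA1 and -0.72 for HSPH1. Among the other chaperone genes, called by edgeR after Benjamini-Hochberg adjustment, it was -0.61 for CHORDC1, -0.62 for DNAJC6, -0.73 for HSPA2 (adjusted p = 6.16e-05), -0.64 for AHSA1 (adjusted p = 1.08e-10), 1.14 for HSPB6 (adjusted p = 1.77e-05), -0.84 for HSPE1 (adjusted p = 3.46e-11), -0.85 for HSPA5 (adjusted p = 6.6e-13), -0.83 for CALR and -0.60 for BAG3 (adjusted p = 2.91e-08), which became -0.57, under the fold threshold, without clone 1 replicate 2. The calls of CHORDC1, DNAJC6, HSPA2, AHSA1 and BAG3 were lost under glmTreat, those of CHORDC1, DNAJC6, HSPA2 and BAG3 also in limma on log2(FPKM + 1), and that of CHORDC1 in limma on log2(FPKM + 0.1). Each clone is 1 clone, so the repair and variation from clone to clone cannot be told apart.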

How the results depend on the processing

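Over 228 results for single genes, 3538 of 3636 values under an alternative kept their direction and their side of the threshold, 75 lost a call, 23 gained one and none reversed; for the members these were 942 of 957. HSP90AA1 in clone 1 against HMC-1.2 and DNAJB1 for HMC-1.1 set against HMC-1.2 lost their calls under glmTreat and both limma fits, and HSPA8 in clone 1 and HSPA1B in clone 2 against HMC-1.1 under glmTreat. In clone 1 against HMC-1.1, HSP90AA1 stood just under the fold threshold at a log2 fold change of -0.582. It gained a call in 7 of 16 alternatives, among them DESeq2 and RLE factors. Members called in clone 2 against HMC-1.1 went from 2 to 1 under glmTreat. Pathway genes called in clone 2 against HMC-1.2 went from 5 to 3 under glmTreat and under limma on log2(FPKM + 1), for HMC-1.1 set against HMC-1.2 from 7 to 4 and 4, in clone 1 against HMC-1.1 from 4 to 0 and 1, and in clone 1 against clone 2 from 11 to 6 and 7. glmTreat tests against 1.5-fold by construction, and for limma the cause was not tested. Pathway genes called in clone 2 against HMC-1.1 went from 0 to 1 with no filter on low counts and to 1 without the 3 libraries labelled as resent, an alternative chosen after seeing the data.

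With 1 library left out, members called ranged from 8 to 8, 1 to 1, 4 to 4, 3 to 4, 2 to 2 and 7 to 7 in clone 1, clone 2 and HMC-1.1 against HMC-1.2, clone 1 and clone 2 against HMC-1.1, and clone 1 against clone 2, and pathway genes from 18 to 20, 3 to 5, 6 to 8, 2 to 5, 0 to 1 and 10 to 15. The pathway count was 3 in clone 2 against HMC-1.2 without HMC-1.2 replicate 3, 2 in clone 1 against HMC-1.1 without HMC-1.1 replicate 2 or clone 1 replicate 2, and 1 in clone 2 against HMC-1.1 without clone 2 replicate 1 or replicate 3. With the replicate block, the counts stayed at 8, 1, 4, 3, 2 and 7 members and 19, 5, 7, 4, 0 and 11 pathway genes. The replicate numbers did not pair the samples. Depth limits DNAJA4 outside HMC-1.2, where a count of 0 allows up to 0.0268 CPM in HMC-1.1 and 0.0256 CPM in clone 2.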
